A study of Mus musculus with 47 samples.

Results

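Htt, the gene that carries the CAG repeat expansion in Huntington's disease, was examined together with 8 genes beside it on mouse chromosome 5: Sh3bp2, Add1, Mfsd10, Nop14, Grk4, Msantd1, Rgs12 and Lrpap1. The genes were chosen by name for their position and not for any measured value, though with earlier results of these data known. They are 9 of the 48795 genes counted. RNA of the cerebral cortex was sequenced from 47 mice of 6 months of age on a background labelled C57BL. The groups were Q140 X Ccdc82-/- (n = 7, 3 females and 4 males), Q140 X Ccdc82+/-, Q140, Ccdc82-/-, Ccdc82+/- and wild type (WT), the last 5 with 4 females and 4 males each. Q140 is a knock-in allele of Htt itself, with an expanded CAG repeat, and the sample titles give its carriers as heterozygous, so that 23 mice had 1 expanded Htt allele and 24 had none. Ccdc82, whose product holds a coiled coil, was lost from 1 allele (+/-) or both (-/-), and the deleted part is not named in the labels.

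Huntingtin is a large scaffold protein that takes part in vesicle transport along microtubules, in autophagy and in transcription, and is made in nearly all cells, with high levels in neurons. In Huntington's disease a lengthened run of glutamines, encoded by CAG codons in the first exon, leads to loss of neurons in striatum and cortex. A knock-in places the lengthened run in the animal's own Htt, under the gene's own promoter, so that Htt and its neighbours are the genes nearest to the altered site. The neighbours have unlike roles. Grk4 is a kinase that phosphorylates activated G protein-coupled receptors, Rgs12 speeds the return of Gα subunits to their inactive form, and Sh3bp2 is a signalling adaptor studied mostly in immune cells and osteoclasts. Add1 is alpha-adducin, which caps actin filaments and joins them to spectrin. Lrpap1 is an endoplasmic reticulum chaperone of lipoprotein receptors, and Mfsd10 is a membrane transporter of the major facilitator type. Nop14 is part of the nucleolar complex that makes the small ribosomal subunit, and Msantd1 is named for its Myb/SANT DNA-binding domain.

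On GRCm38, with the GENCODE M21 annotation, the 9 protein-coding genes lay between chr5:34525838 and chr5:35105766, in the order Sh3bp2 (34525838 to 34563641, + strand), Add1 (34573664 to 34632308, +), Mfsd10 (34633642 to 34637212, -), Nop14 (34638536 to 34660148, -), Grk4 (34660379 to 34755305, +), Htt (34761740 to 34912534, +), Msantd1 (34908012 to 34923839, +), Rgs12 (34949445 to 35039644, +) and Lrpap1 (35091501 to 35105766, -). Htt spans 150795 bases with 63 blocks of exon sequence. Grk4 ends 6.434 kb before Htt starts, and Rgs12 starts 36.91 kb after Htt ends. Msantd1 overlaps the end of Htt on the same strand over 4523 bases, with 0 bases of shared exon. Nop14 and Grk4 start back to back, 230 bases apart on opposite strands.

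Stretches of this locus are shown here because they bear on the Q140 comparison and on the pair with a shared start region: the bases between the starts of Nop14 and Grk4, the 250 bases before the start of Htt, and the first 120 coding bases of Htt, which hold the glutamine run that the Q140 allele lengthens. All are on the + strand, the first from RefSeq on GRCm38.p6 at chr5:34660149-34660378, the second from RefSeq on GRCm38.p6 at chr5:34761490-34761739, and the third from the GENCODE M21 transcripts at chr5:34761907-34762026, within exon 1.
Nop14 to Grk4: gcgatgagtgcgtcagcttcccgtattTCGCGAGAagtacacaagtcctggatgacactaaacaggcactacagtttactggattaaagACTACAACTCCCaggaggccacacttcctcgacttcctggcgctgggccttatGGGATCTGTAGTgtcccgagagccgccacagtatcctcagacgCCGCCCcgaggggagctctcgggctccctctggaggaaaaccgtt
Htt upstream: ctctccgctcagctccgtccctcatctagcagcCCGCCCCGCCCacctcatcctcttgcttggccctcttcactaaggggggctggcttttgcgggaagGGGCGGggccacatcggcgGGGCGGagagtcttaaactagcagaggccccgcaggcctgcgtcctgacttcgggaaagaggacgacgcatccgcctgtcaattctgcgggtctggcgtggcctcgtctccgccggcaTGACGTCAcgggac
Htt coding start: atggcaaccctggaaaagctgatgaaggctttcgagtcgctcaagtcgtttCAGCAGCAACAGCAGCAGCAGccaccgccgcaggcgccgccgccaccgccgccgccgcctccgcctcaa
In the upstream stretches, capitals mark matches, on either strand, to GGGCGG (the GC box), TGACGTCA (the cAMP response element), the ZNF143 type motif and TCTCGCGA. These motifs were chosen after the sequences had been seen, and a match describes letters and not a bound site. The Htt stretch held 4 GC boxes, of which the first pair overlaps, and 1 cAMP response element, while the stretch between Nop14 and Grk4 held 1 GC box, 2 matches of the ZNF143 type and 1 of TCTCGCGA. Among 32851 RefSeq promoters of the same organism, each of 250 bases before and 50 after a start, 35.7% held GGGCGG, 1.79% TGACGTCA, 1.81% the ZNF143 type motif and 0.995% TCTCGCGA. In the coding start, capitals mark the reference glutamine run of 7 codons, 6 CAG and 1 CAA, at codons 18 to 24 (chr5:34761958-34761978). This is the reference allele. The repeat length of the Q140 mice was not measured here, and the deposited counts give 1 value per gene, so RNA of the expanded allele and RNA of the other allele were not counted apart.

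The libraries held 43554594 to 61370843 counts (median 50473683), and all 9 genes were covered in every mouse. Counts per library lay between 9880 and 14400 for Htt, 17100 and 24300 for Add1, and 5670 and 8370 for Lrpap1, but only between 58 and 148 for Sh3bp2, Grk4 and Msantd1, whose values are less precise. Ccdc82 itself, the check of the deletion labels, stood at 5.51 ± 0.426 CPM (counts scaled to a common library total) in Q140 X Ccdc82-/-, 11.4 ± 0.875 in Q140 X Ccdc82+/-, 15.6 ± 0.996 in Q140, 5.32 ± 0.595 in Ccdc82-/-, 10.9 ± 0.962 in Ccdc82+/- and 16.2 ± 1.58 in WT (SD, n = 7 in Q140 X Ccdc82-/- and 8 in each other group). Sex-linked genes matched the labelled sex in 47 of 47 libraries. Markers of the cortex's main cell types were present, and no listed marker of any cell type or region was at 0 in all libraries. The labels do not say that each library is a separate animal beyond numbering them within genotype and sex, so p-values measure the spread between these samples.

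On the FPKM scale, which divides by gene length and so allows levels of different genes to be compared, the 9 genes covered a wide range. Add1 stood highest at 45.9 FPKM and Lrpap1 next at 32.3 FPKM, both in that rank in 47 of 47 mice, at the 94.7th and 91.8th percentile of all genes tested. Htt averaged 9.49 FPKM (lowest 8.59, highest 10.5; 71.6th percentile) and Nop14 8.81 FPKM (7.62 to 10.4). Their ranges overlapped, and Htt was above Nop14 in 41 of 47 mice. Mfsd10 followed at 5.16 FPKM and Rgs12 at 3.67 FPKM, each above the next gene in 47 of 47 mice. Msantd1 (0.606 FPKM), Sh3bp2 (0.501 FPKM) and Grk4 (0.478 FPKM) were low and their ranges overlapped, with Msantd1 above Sh3bp2 in 39 mice and Sh3bp2 above Grk4 in 26 of 47. Grk4, the gene just before Htt on the chromosome, was thus the lowest of the 9 on average, and Htt the third highest.

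**Figure D1:**
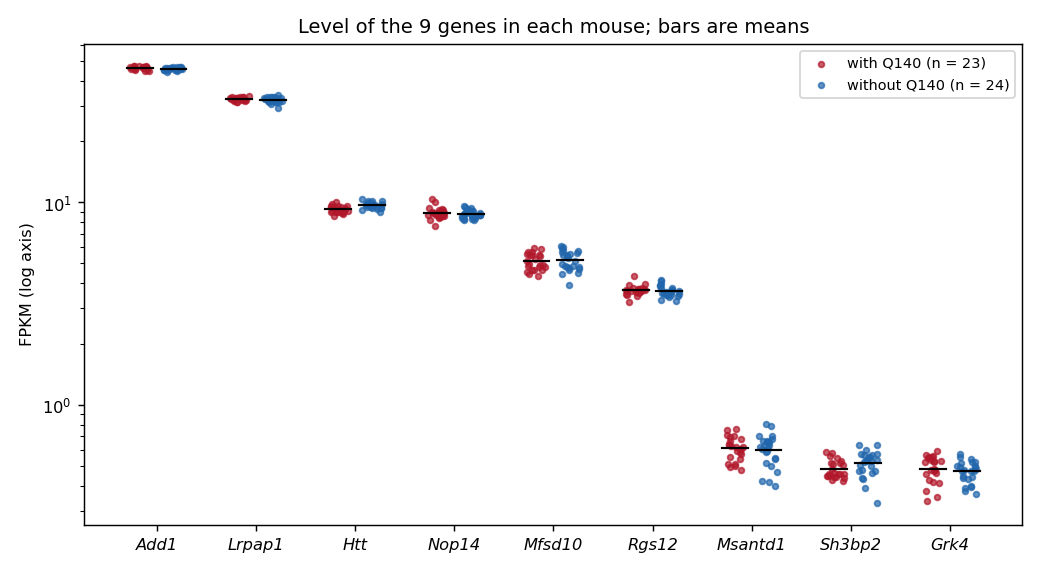
FPKM of each of the 9 genes (x axis, from highest to lowest mean) in each mouse, on a log y axis, with mice that carry Q140 (n = 23) left of mice that do not (n = 24); bars are group means. Add1 and Lrpap1 lie above Htt in all mice, Htt and Nop14 overlap, and Msantd1, Sh3bp2 and Grk4 average 0.478 to 0.606 FPKM.

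Htt RNA, as counted on the reference build, was lower in the mice with the Q140 allele, by 5.01% on average. In CPM, which is scaled to the library and compares mice for 1 gene, Htt ran from 220.9 through a median of 224.3 to 234.0 in Q140 X Ccdc82-/- mice, from 214.7 through 225.7 to 243.1 in Q140 X Ccdc82+/- mice and from 211.9 through 223.7 to 236.6 in Q140 mice. The medians of these groups lay close together. Without Q140, Htt ran from 226.2 through 239.5 to 249.7 in Ccdc82-/- mice, from 232.1 through 239.3 to 252.3 in Ccdc82+/- mice and from 220.3 through 232.8 to 241.3 in WT mice. The groups overlapped on each Ccdc82 genotype. In Q140 X Ccdc82-/-, 4 of 7 mice were below the lowest Ccdc82-/- mouse, in Q140 X Ccdc82+/-, 7 of 8 were below the lowest Ccdc82+/- mouse, and in Q140, 3 of 8 were below the lowest WT mouse. Over all, 22 of 23 mice with Q140 were below the median of the mice without it, and 20 of 23 were below the mean of the Q140-free mice of their own Ccdc82 genotype and sex.

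**Figure D2:**
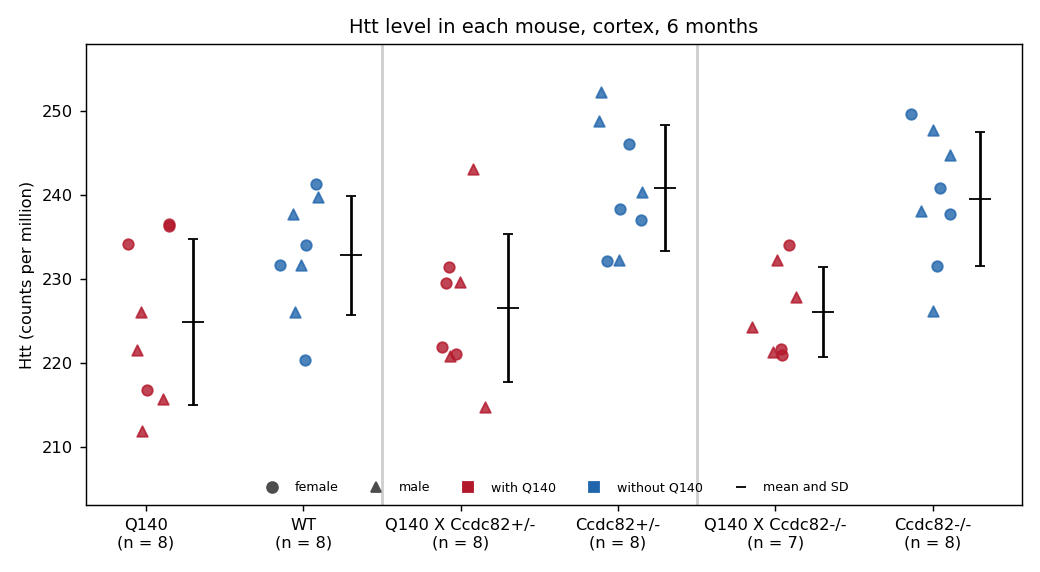
Htt level in CPM (y axis, not starting at 0) in each mouse of the 6 genotypes (x axis), females as circles and males as triangles, with the mean and SD of each group beside its points; each group with Q140 stands left of its control. The 3 groups with Q140 average 224.9 to 226.5 CPM and the 3 without 232.8 to 240.9 CPM, with overlap in each pair.

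Averaged over the 3 Ccdc82 genotypes, Htt stood at 225.8 ± 8.016 CPM with Q140 and 237.8 ± 8.059 CPM without (SD, n = 23 and 24). The fitted log2 difference was -0.074 (SE 0.015), a fall of 5.01% with a 95% interval of -6.94% to -3.05%, and it passed the test over all genes (edgeR's quasi-likelihood test, adjusted p = 0.0032). In this comparison 168 of 19174 genes were called at an adjusted p under 0.05, 0.876% of those tested (0.537% as lower), and 1 of the 9 genes at the locus was among them, Htt. Htt ranked 38th by p, although 24 of the 168 called genes had smaller differences. Its SE was small, with 8.45% of tested genes at or below it, and the median log2 difference among the called genes was 0.12 in size. The tissue is bulk cortex, so fewer cells that make Htt and less Htt RNA per cell cannot be told apart. Reads were counted against the reference build, whose glutamine run has 7 codons. Whether reads of the expanded run were counted as fully was not tested.

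The single comparisons had wider errors, and Htt was called in none of them. Its log2 difference was -0.084 (SE 0.026, adjusted p = 0.765) in Q140 X Ccdc82-/- against Ccdc82-/-, -0.089 (SE 0.025, adjusted p = 0.573) in Q140 X Ccdc82+/- against Ccdc82+/-, and -0.050 (SE 0.025, adjusted p = 0.725) in Q140 against WT, where the 95% interval reached from -6.74% to 0.0157%. These comparisons called 4, 6 and 6 genes in all, 0.0209%, 0.0313% and 0.0313% of those tested, and 800, 993 and 1328 genes had an unadjusted p under 0.05. Htt had an unadjusted p of 0.00233 on Ccdc82-/-, 0.000897 on Ccdc82+/- and 0.051 on WT. The difference between the Q140 effects themselves was -0.033 (SE 0.036) for Ccdc82-/- less WT and -0.039 (SE 0.036) for Ccdc82+/- less WT, both with an adjusted p of 1, so no dependence on Ccdc82 was detectable at this size of error. The interactions called 0 of 19174 genes (0%), and an unadjusted p under 0.05 was found for 567 and 674.

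By sex, Htt was called as lower with Q140 in males and not in females. Females with Q140 had 227.7 ± 7.296 CPM against 236.7 ± 7.686 CPM in females without (SD, n = 11 and 12), and males with Q140 had 224.1 ± 8.564 CPM against 238.8 ± 8.62 CPM in males without (n = 12 each). The log2 difference was -0.057 (SE 0.021, adjusted p = 0.626) in females and -0.092 (SE 0.020, adjusted p = 0.0417) in males, in comparisons that called 0.0678% and 0.177% of genes. The female difference minus the male one was 0.035 (SE 0.029, adjusted p = 1), so the sexes were not shown to differ, and that test called 0 genes (0%), with 769 at an unadjusted p under 0.05. Within the 6 plate columns given by the well labels, Htt was lower with Q140 in 6 of 6, by -0.152 to -0.029 on the log2 scale. Within the numbers that the library names carry, 11 of which held mice of both kinds, Htt was lower in 10, with a median of -0.072 and a range of -0.163 to 0.034. The sex effect, but not the Ccdc82 genotype, was removed from these differences within columns and numbers. They rest on few mice, with 5 against 2 in column 6 and 1 against 1 in numbers 18 and 41. Leaving out each of the 47 mice in turn gave -0.079 to -0.070, with adjusted p from 0.000832 to 0.00746.

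Some cell markers were called in the pooled Q140 comparison too, in which 0.876% of all genes tested were called. Of 4 excitatory neuron markers 1 was lower, Camk2a (-0.082, SE 0.014, adjusted p = 0.000378), and the summed level of the list ran from 5170 through 5410 to 5790 CPM with Q140 and from 5410 through 5720 to 6060 CPM without. Of 7 astrocyte markers 2 were lower, Slc1a2 (-0.076, SE 0.017, adjusted p = 0.0123), a glutamate transporter, and Glul (-0.113, SE 0.016, adjusted p = 2.15e-05), glutamine synthetase. The astrocyte list summed to 5630, 5840 and 6430 CPM (lowest, median, highest) with Q140 and to 5880, 6200 and 6860 CPM without. Of 6 microglia markers 1 was higher, the protease gene Ctss (0.079, SE 0.020, adjusted p = 0.0369), and the list summed to 229, 241 and 262 CPM with Q140 and 216, 235 and 254 CPM without. The striatal markers reported here, Ppp1r1b (-0.11, SE 0.032, adjusted p = 0.121), Drd1 (-0.032, SE 0.052) and Adora2a (-0.026, SE 0.066), did not pass the test. No gene of the inhibitory neuron, oligodendrocyte, oligodendrocyte precursor, endothelial and pericyte, meningeal fibroblast, red blood cell, choroid plexus or thalamus lists was called. No marker of these lists was at 0 in all libraries, and the part of these cells in the Htt difference was not tested.

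None of the 8 neighbours passed the test in the pooled Q140 comparison or on any single Ccdc82 genotype. The pooled 95% intervals of all 8 included 0, and they were widest for the genes with the lowest counts. The median size of the log2 difference over the 9 genes was 0.020, against 0.027 over all genes tested.

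Among the signalling genes, Grk4 lay nearest to Htt. Grk4 ran from 1.64 through a median of 2.32 to 2.85 CPM with Q140 and from 1.77 through 2.31 to 2.76 CPM without, and its log2 difference was 0.037 (SE 0.056, adjusted p = 0.915, 95% interval -5.09% to 10.9%). By Ccdc82 genotype it was -0.14 (SE 0.099) in Q140 X Ccdc82-/- against Ccdc82-/-, 0.065 (SE 0.096) in Q140 X Ccdc82+/- against Ccdc82+/- and 0.18 (SE 0.095) in Q140 against WT, and the interaction with Ccdc82-/- was -0.32 (SE 0.137), with an unadjusted p of 0.0246 and an adjusted p of 1. The order of its means turned round accordingly, with 2.19 ± 0.349 CPM in Q140 X Ccdc82-/- against 2.42 ± 0.257 CPM in Ccdc82-/-, and 2.48 ± 0.359 CPM in Q140 against 2.19 ± 0.258 CPM in WT, but none of these differences passed the test. Rgs12 ran from 26.9 through 30.3 to 35.5 CPM with Q140 and from 27.2 through 30.0 to 34.3 CPM without, a log2 difference of 0.0049 (SE 0.021, adjusted p = 0.976) with an interval of -2.6% to 3.37%. Sh3bp2, the farthest of the 9 genes from Htt at 198.098 kb, had the largest pooled difference in size, -0.098 (SE 0.056, adjusted p = 0.638, interval -13.6% to 0.969%). It stood at 2.08 ± 0.212 CPM with Q140 and 2.22 ± 0.312 CPM without (SD, n = 23 and 24), and 16 of 23 mice with Q140 were below the mean of their Ccdc82 genotype and sex. A difference as large as that of Htt lies inside its interval.

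Add1 and Lrpap1, the most abundant of the 9, gave the narrowest intervals. Add1 ran from 377.1 through 395.4 to 406.9 CPM with Q140 and from 377.0 through 393.1 to 401.7 CPM without, a log2 difference of 0.0053 (SE 0.00954, adjusted p = 0.927) with an interval of -0.956% to 1.71%. Lrpap1 ran from 128 through 134 to 140 CPM with Q140 and from 120 through 133 to 141 CPM without, and differed by 0.0076 (SE 0.014, adjusted p = 0.928, interval -1.38% to 2.47%). For both genes, as for Rgs12 and Nop14, the interval lay wholly above the 5.01% by which Htt was lower. Mfsd10, next to Add1, differed by -0.028 (SE 0.037, adjusted p = 0.9, interval -6.81% to 3.26%), an interval that holds the Htt value.

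Of the genes that act in the nucleus, Nop14 stood at 24.2 ± 1.42 CPM with Q140 and 24 ± 1.05 CPM without (SD, n = 23 and 24), a log2 difference of 0.011 (SE 0.020, adjusted p = 0.928, interval -2.02% to 3.64%). Msantd1, whose body runs into the end of Htt, stood at 1.77 ± 0.242 CPM with Q140 and 1.75 ± 0.319 CPM without, a difference of 0.020 (SE 0.067, adjusted p = 0.967, interval -7.59% to 11.2%). By Ccdc82 genotype Msantd1 differed by -0.072 (SE 0.118) on Ccdc82-/-, 0.16 (SE 0.116) on Ccdc82+/- and -0.032 (SE 0.112) on WT. Antisense genes annotated over Nop14, Grk4 and Rgs12 were at or near 0 CPM in all groups.

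**Figure D3:**
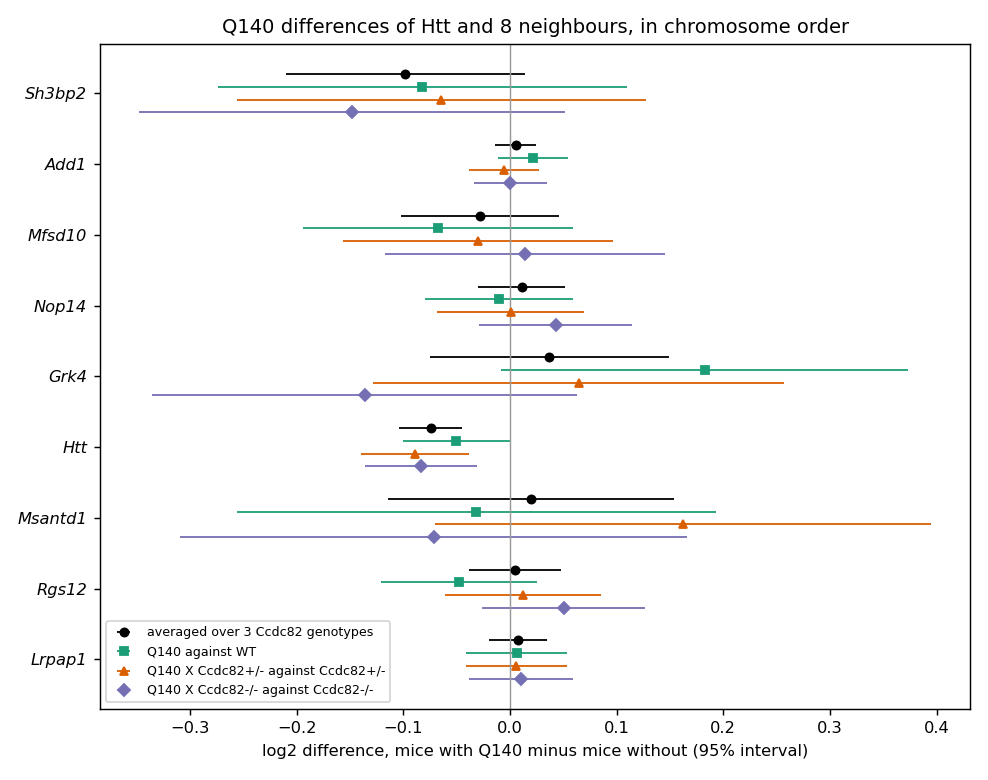
Log2 difference of the 9 genes, mice with Q140 minus mice without (x axis, with 95% intervals), in chromosome order (y axis); black circles average the 3 Ccdc82 genotypes and coloured symbols show each genotype. The pooled interval of Htt lies below 0, and those of the 8 neighbours include 0.

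Of the other genes around the locus, 1 was called. Between the outermost of the 9 genes lay 10 other annotated genes, of which 1 was expressed enough to be tested, Dok7 (-0.050, SE 0.027, adjusted p = 0.605), an adaptor of muscle synapses. Within 1000 kb of Htt on either side there were 57 annotated genes besides the 9, of which 27 were tested and 1 was called. That gene was Nat8l, at -755.8 kb from Htt, which makes N-acetylaspartate in neurons. Nat8l stood at 638 CPM with Q140 and 676 CPM without and was lower by a log2 difference of -0.084 (SE 0.020, adjusted p = 0.0168), with -0.10 on Ccdc82-/-, -0.097 on Ccdc82+/- and -0.056 on WT. The 27 genes had a median difference of -0.027 and a median size of 0.034, against 0.0009 and 0.027 over all genes tested, and 3 of them had an unadjusted p under 0.05, against 1760 of 19174 over all genes.

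**Figure D4:**
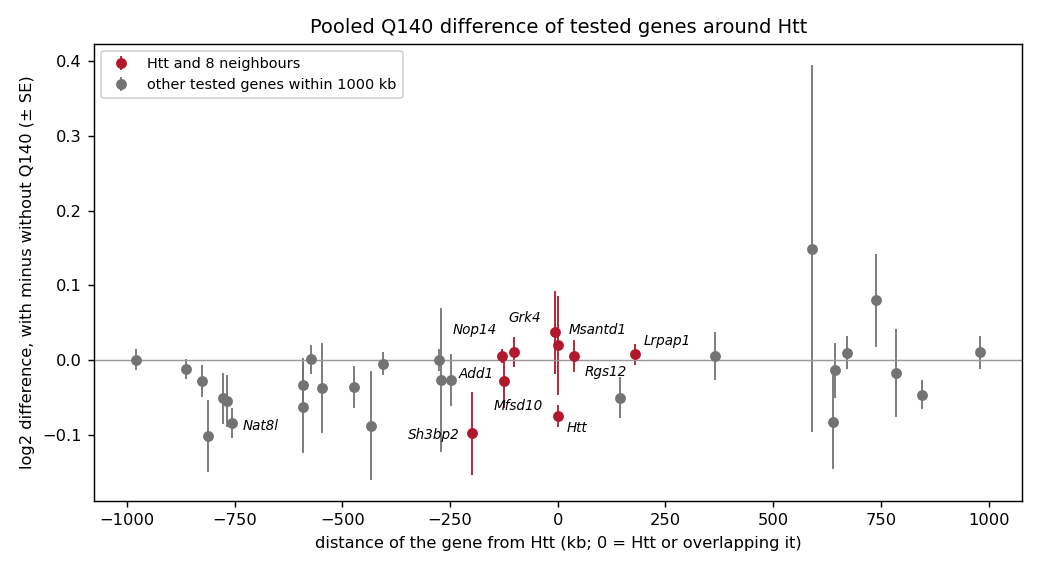
Pooled log2 difference, mice with Q140 minus mice without (y axis, ± SE), of each tested gene against its distance from Htt in kb (x axis; genes that overlap Htt are at 0). Htt lies at -0.074 and the 8 neighbours between -0.098, for Sh3bp2, and 0.037, for Grk4; Nat8l, at -755.8 kb, lies at -0.084.

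Loss of Ccdc82 left all 9 genes without a call. Averaged over mice with and without Q140, the log2 difference of Htt was 0.025 (SE 0.018, adjusted p = 1) for Ccdc82-/- mice and 0.030 (SE 0.018, adjusted p = 0.905) for Ccdc82+/- mice. Each of these comparisons called 1 of 19174 genes, Ccdc82 itself, or 0.00522%, and an unadjusted p under 0.05 was found for 892 and 1019 genes. Htt averaged 239.6 ± 8.015 CPM in Ccdc82-/-, 240.9 ± 7.498 CPM in Ccdc82+/- and 232.8 ± 7.077 CPM in WT (SD, n = 8 each), and against WT it differed by 0.041 (SE 0.025, adjusted p = 0.999) and 0.049 (SE 0.025, adjusted p = 0.993). WT thus had the lowest mean of the 3 controls, though neither difference from it was called. The Q140 difference on WT was computed against this mean, and the part of its level in that smaller difference was not tested. In Q140 mice the same steps gave 0.0079 (SE 0.026) for Ccdc82-/- and 0.011 (SE 0.025) for Ccdc82+/-, with adjusted p of 0.997 and 0.987.

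Rgs12 and Msantd1 had the lowest unadjusted p of the 9 genes in the Ccdc82 comparisons, but by adjusted p neither was near a call. Rgs12 stood at 28.9 ± 1.35 CPM in Ccdc82-/- against 31.5 ± 1.47 CPM in WT (SD, n = 8 each), a log2 difference of -0.124 (SE 0.037, unadjusted p = 0.00138, edgeR adjusted p = 0.999). With Q140 it stood at 30.0 ± 1.8 CPM in Q140 X Ccdc82-/- and 30.4 ± 0.698 CPM in Q140, a difference of -0.026 (SE 0.038). Msantd1 stood at 1.56 ± 0.291 CPM in Ccdc82+/- against 1.9 ± 0.238 CPM in WT, a difference of -0.28 (SE 0.114, adjusted p = 0.993), and with Q140 at 1.75 ± 0.279 CPM in Q140 X Ccdc82+/- against 1.86 ± 0.166 CPM in Q140. Each of the 4 single comparisons (Ccdc82-/- and Ccdc82+/- against WT, then the same with Q140) again called Ccdc82 alone (0.00522%), and an unadjusted p under 0.05 was found for 619, 690, 785 and 1039 genes.

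Mfsd10, the transporter gene, was lower in females than in males. Mfsd10 ran from 11.4 through a median of 14 to 17.2 CPM in females and from 13 through 16 to 17.4 CPM in males, and 21 of 23 females were below the male median. It was lower in females by a log2 difference of -0.132 (SE 0.037, adjusted p = 0.0158), or by 8.75% (95% interval -13.3% to -3.94%), and by -0.164 (SE 0.035, adjusted p = 0.00162) with plate column as a factor. Sex differences were common in this cortex, with 2018 genes called, 10.5% of those tested (5.26% as lower), so that 1 of 9 is near the share of all genes. Nop14, on the same strand next to Mfsd10, stood at 23.6 ± 0.87 CPM in females and 24.5 ± 1.35 CPM in males (SD, n = 23 and 24), a difference of -0.058 (SE 0.020, adjusted p = 0.0552) that fell short of the threshold in edgeR and passed it in DESeq2 (adjusted p = 0.0438). The sex difference of Htt was within its error, at 232.4 ± 8.663 CPM in females and 231.4 ± 11.28 CPM in males (0.0049, SE 0.015, adjusted p = 0.871). Its sign turned with plate column as a factor (-0.0057).

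Mouse by mouse, after the genotype and sex means were removed, few of the 9 genes varied together. Of 36 pairs among the 9 genes, 3 passed a permutation test over the 47 mice (100000 permutations, two-sided, adjusted over the 36 pairs), and none of these included Htt. The share of pairs that would pass among all tested genes was not computed, so 3 of 36 is not read as particular to the locus. Add1 and Lrpap1 varied together, with r = 0.61 (rho = 0.605, permutation p = 1e-05, the smallest that these permutations can give, adjusted p = 0.00036), 0.585 without the 2 mice farthest from the median of Add1, 0.786 among mice with Q140 and 0.559 among mice without. With the means of the plate columns also removed r was 0.564, and within the 6 columns it was positive in 5 (-0.293 to 0.848). They lie on opposite sides of Htt. Grk4 and Msantd1, on either side of Htt, also varied together (r = 0.504, rho = 0.458, permutation p = 0.00025, adjusted p = 0.0045), with 0.431 without the 2 farthest mice, 0.53 with Q140, 0.502 without, 0.489 with plate columns removed and a positive sign in 6 of 6 columns (0.011 to 0.694). Add1 and Mfsd10, direct neighbours, varied in opposite directions (r = -0.424, rho = -0.418, permutation p = 0.00308, adjusted p = 0.037), with -0.502 without the 2 farthest mice, -0.381 with Q140, -0.478 without, -0.313 with plate columns removed and a negative sign in 5 of 6 columns (-0.725 to 0.567). Removing the means of the library-name numbers instead gave r = 0.389, 0.56 and -0.517 for these pairs in the same order.

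Of the 8 pairs that follow each other in the chromosome order of the genes examined, 1 passed the test, Add1 with Mfsd10. Rgs12 and Lrpap1, also such a pair, have other genes between them, Dok7 among these. Nop14 and Grk4, whose starts share the 230 bases printed above, had r = 0.144 (rho = 0.198, permutation p = 0.335, adjusted p = 0.634). Htt had r = 0.083 with Grk4 and -0.1 with Msantd1, and its highest r with a neighbour was 0.241, with Mfsd10 (permutation p = 0.103, adjusted p = 0.411). For scale, 95% of the 19173 other tested genes had an r with Add1 between -0.429 and 0.494, and with Grk4 between -0.332 and 0.321. The same range was -0.491 to 0.507 for Mfsd10, -0.417 to 0.459 for Lrpap1 and -0.419 to 0.464 for Msantd1. The r of -0.424 of Add1 with Mfsd10 thus lay inside the ranges of both genes. Add1 with Lrpap1 and Grk4 with Msantd1 lay outside theirs. The mice share a leading axis of variation, which held 9.36% of the residual variance, and r with that axis was -0.358 for Add1, -0.393 for Lrpap1, 0.482 for Mfsd10, -0.437 for Msantd1, -0.02 for Grk4 and 0.465 for Htt. The part of this axis in the pairs was not tested.

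**Figure D5:**
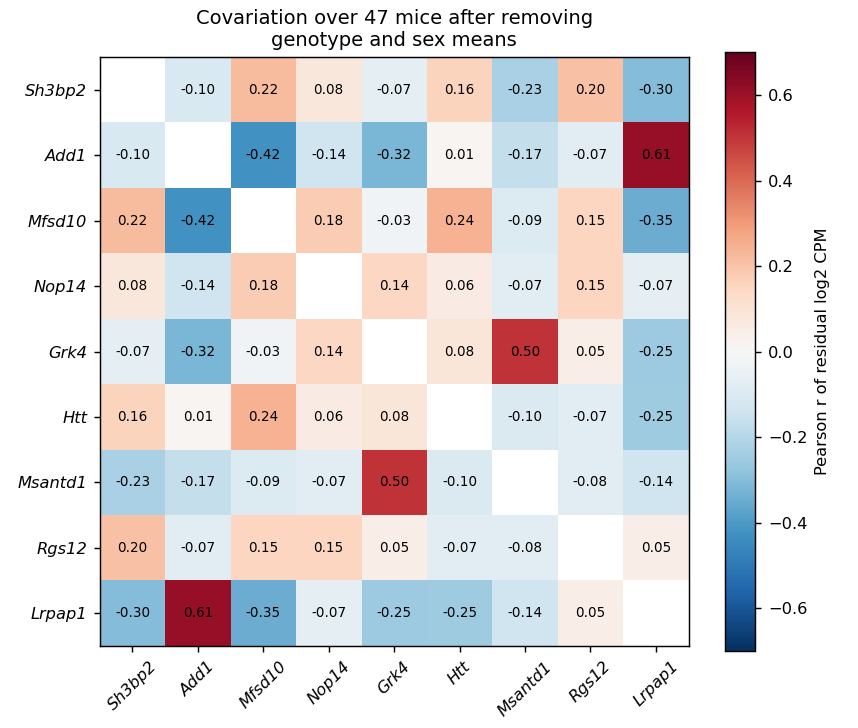
Pearson r between each pair of the 9 genes over 47 mice, on log2 CPM after removing genotype and sex means (both axes in chromosome order; colour and printed values give r). The pairs Add1 with Lrpap1 (0.61), Grk4 with Msantd1 (0.504) and Add1 with Mfsd10 (-0.424) passed the test, and the row of Htt holds no such pair.

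Over all tested genes, those whose residuals were most like those of Htt lay on other chromosomes. The 5 tested genes with the highest r over the 47 mice were E130307A14Rik on chromosome 10 (0.71), Setd5 on chromosome 6 (0.663), Kcnq5 on chromosome 1 (0.641), Cacna1d on chromosome 14 (0.639) and Tmem245 on chromosome 4 (0.622). Kcnq5 encodes a potassium channel subunit, Cacna1d an L-type calcium channel subunit and Setd5 a SET domain protein. These values describe the same 47 libraries, share their depth and composition, and carry no test, and 95% of the 19173 other genes had an r with Htt between -0.428 and 0.421.

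Genes that work with the 9 in the same pathways were read against the 0.876% of all genes tested that were called with Q140. Of 30 genes that encode huntingtin partners or modifiers of huntingtin, 0 were called (edgeR), with a median log2 difference of 0.0068 against 0.0009 over all genes. Examples are Hap1, which links huntingtin to motor proteins (-0.0068, SE 0.027), Hip1r, which binds clathrin and actin (0.0032, SE 0.015), and the palmitoyl transferase gene Zdhhc17 (0.0054, SE 0.013). Pacsin1, an endocytic adaptor of synapses, stood at -0.034 (SE 0.017, adjusted p = 0.544). Of 8 RGS genes besides Rgs12, 1 was lower, Rgs4 (-0.075, SE 0.019, adjusted p = 0.0369), at 180 ± 8.28 FPKM with Q140 and 189 ± 8.52 FPKM without. The RGS list had a median of -0.029, with Rgs10 at -0.072 (SE 0.024, adjusted p = 0.187). Among receptors that are clients of Lrpap1, Lrp1b was higher (0.11, SE 0.018, adjusted p = 6.63e-05), at 2.58 ± 0.134 FPKM with Q140 and 2.37 ± 0.114 FPKM without. Vldlr (0.027, SE 0.020), Sorl1 (0.0057, SE 0.032), Lrp8 (0.0007, SE 0.040) and Lrp1 (-0.0031, SE 0.014) did not pass the test.

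The remaining lists held no called gene. Of 7 adducin and spectrin genes 0 were called, with a median of 0.0038, and the largest difference was that of the spectrin gene Sptb (-0.057, SE 0.015, unadjusted p = 0.000513, adjusted p = 0.0546), while the adducins Add2 and Add3 stood at 0.0042 (SE 0.011) and 0.019 (SE 0.016). Of 6 receptor kinase and arrestin genes 0 were called, with differences from -0.022 (Grk5) to -0.0072 (Grk6). Of 10 genes of the small subunit processome, which acts with Nop14, 0 were called, with a median of 0.009, and of 7 partners of Sh3bp2 0 were called, with a median of 0.012. In the pooled Ccdc82-/- and Ccdc82+/- comparisons, 0 genes of these 7 lists were called.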

How the data were processed

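Cortex RNA of 47 mice was sequenced with stranded TruSeq libraries, per the labels' protocols. The deposited counts are raw read counts per gene, and the deposited FPKM values are scaled by the authors to gene length and library total. Per the submitters' processing notes, the tools included HTSeq 0.12.3, STAR 2.7.5c and SAMtools 1.10, and mm10 (GRCm38) was the build. Neither the strand setting nor the release of the gene annotation was given in the sources used here. Reads of a gene and of an antisense gene may not be told apart. Of 48795 gene identifiers, 48349 were found in GENCODE M21, from which coordinates were taken.

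Groups came from the sample titles. Counts were filtered (filterByExpr, minimum count 10, minimum total 15; 19174 genes left), normalized by TMM (factors 0.984 to 1.01) and fitted in edgeR 4.0.16 by the quasi-likelihood method, with 6 genotype means and sex, in R 4.3.3. Genes were called at a Benjamini-Hochberg adjusted p under 0.05 over all genes tested. The pooled Q140 comparison is the mean of the 3 genotypes with Q140 minus the mean of the 3 without. The same fit gave the comparisons by Ccdc82 genotype, the interactions and the sexes; Q140 differences by sex came from 12 genotype-by-sex means. Library depth was 43554594 to 61370843 counts. CPM are counts scaled to a common TMM-adjusted library total. Correlations used log2 CPM (prior count 2) after genotype and sex means were removed. The fit was tested on simulated data. Alternatives were DESeq2 1.42.0, other normalizations and filters, batch terms, limma 3.58.1 on log2 FPKM (pseudocount 0.1 or 1), 2 surrogate variables (sva 3.50.0) and leaving out each library. Library pairs within a group differed beyond counting error (chi-square per gene 4.03 to 25.5), so none was treated as a duplicate.

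The 9 genes and the gene lists were chosen with earlier results of these data known. Genes were named if they were among the 9, lay near Htt and were called, belonged to a list and were called, or were the 5 most correlated with Htt. Dok7, list members that were not called, Rgs12 and Msantd1 in the Ccdc82 comparisons and Nop14 by sex were named after their values had been seen. Results of the striatal and lipoprotein receptor lists are given in part, and the rest is not reported here.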

Additional observations from a re-analysis of the deposited data

Results flagged for a closer look

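A single mouse lay far from the rest of its group for 2 of the 54 combinations of a gene and a genotype, judged by its gap to the nearest mouse as a share of the group's range, where chance gives about 1 in 20. Sh3bp2, the signalling adaptor gene, stood at 2.48 CPM in male 3 of Q140 X Ccdc82-/-, against 1.86 to 2.1 CPM in the other mice of that group (n = 7; gap 0.613 of the range). Add1, alpha-adducin, stood at 377.0 CPM in male 4 of Q140 X Ccdc82+/-, against 392 to 401 CPM in the other mice (n = 8; gap 0.609 of the range). Htt had no such mouse in any genotype.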

How the results depend on the processing

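Htt kept its direction and its call in the pooled Q140 comparison under every alternative run, with log2 differences from -0.0794 to -0.0612 and the highest adjusted p, 0.0422, with the library-name number as fixed terms. With the replicate block (the title number within sex) Htt stood at -0.075 (SE 0.0151, adjusted p = 0.00531). By title number, 6 of 115 same-numbered pairs of samples correlated over 0.1 (median -0.0146, highest 0.292). Pairs of unlike title number were not set beside them, so pairing by title number was not excluded. The block left 2 genes called in Q140 X Ccdc82-/- against Ccdc82-/-, against 4 without it. Other counts of called genes that moved by over 1.5 times were 16 in Q140 against WT with DESeq2 (6 in edgeR), 2 with plate column and 3 with no other genotype fitted in Q140 X Ccdc82+/- against Ccdc82+/- (6), and 96 with library-name numbers and 391 with 2 surrogate variables in the pooled Q140 comparison (168). Between the sexes, 2 of the 9 genes were called with DESeq2 and on log2(FPKM + 0.1) and log2(FPKM + 1), against 1 in edgeR, the added gene being Nop14. The sex difference of Htt turned to -0.0057 with plate column and to -0.0048 and -0.0044 on the FPKM scales. Rgs12 turned to -0.0172 in the pooled Q140 comparison with library-name numbers. Leaving out each mouse in turn left 138 to 208 genes called and 1 of the 9 in every case. It turned the sign of Rgs12 (-0.0045 to 0.012) without Ccdc82-/- male 1, Q140 X Ccdc82-/- male 3 or Q140 X Ccdc82+/- male 4, and that of Msantd1 (-0.0053 to 0.0417) without Ccdc82-/- female 1 or Ccdc82+/- female 1. Neither gene was called, and the cause of these moves was not tested. Depth limits Sh3bp2, Grk4 and Msantd1, with 58 to 148 counts per library, whose intervals hold differences as large as that of Htt.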
